A study of Mus musculus with 4 samples.

Results

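The genes for the proteins of the cytosolic ribosome were examined in hematopoietic stem cells of NHD13 and wild-type mice. Members were taken by symbol, as all genes named Rpl or Rps with a number, together with Rplp0, Rplp1, Rplp2 and Rpsa, and each was represented by its transcript with the highest total count. This gave 84 of 24016 gene symbols. They comprised 46 genes of the large subunit, 31 of the small subunit and 7 "-like" paralogues, which are second copies such as Rpl22l1 or Rps27l that encode a related protein or, in Rps4l, a transcript with a non-coding RefSeq accession. The symbols match the label, and genes such as Fau, whose ribosomal protein is made as a fusion to a ubiquitin-like protein, and Gnb2l1, of the small subunit, fall outside the pattern.

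RNA was sequenced from bone marrow cells of C57BL/6 mice at 4 months of age, sorted as lineage-negative, Sca-1+, c-Kit+, CD150+, CD34- and Flt3-. The WT group had 2 libraries from wild-type mice, and the NHD13 group had 2 libraries from mice carrying a NUP98-HOXD13 fusion transgene, a model of myelodysplastic syndrome. In this model the transgene is expressed across hematopoietic cells from Vav1 regulatory elements. Whether each library came from its own animal or from a pool is not stated in the labels, so n counts libraries and a p-value here covers library spread alone, which may be technical. Of the genes of the positive sort markers, Kit was at 1130 and 1271 CPM (counts scaled to library size) in WT and 991 and 1122 in NHD13, Ly6a, which encodes Sca-1, at 273 and 200.2 against 131 and 77.7, and Slamf1, which encodes CD150, at 119 and 134 against 143 and 117. RNA of both negative markers was present as well: Cd34 was at 120 and 138 CPM in WT and 51.6 and 21.4 in NHD13, and Flt3 at 10.4 and 15.4 in WT, 59.0 in NHD13 1 and 4.33 in NHD13 2.

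The ribosome is built from a large and a small subunit, each made of ribosomal RNA and many proteins that are needed in near equal numbers. Most mRNAs of ribosomal proteins begin with a run of pyrimidines, the terminal oligopyrimidine tract, through which mTORC1 and the protein Larp1 control their translation. Blood formation is sensitive to ribosomal protein dosage: loss of 1 copy of a gene such as Rps19 causes Diamond-Blackfan anemia, and loss of Rps14 contributes to the anemia of myelodysplastic syndrome with a deletion on the long arm of human chromosome 5. Free Rpl5 and Rpl11 bind Mdm2, the inhibitor of p53. Hematopoietic stem cells are known for a low rate of protein synthesis.

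Start sequences are shown as examples of pyrimidine runs near the start in members of low and high fold change. Rpl14, Rps21 and Rps27 were among the members with the smallest p, and Rpl12 and Rps27l were among those with the highest fold changes. Each sequence runs 5′ to 3′ from 70 bases before the annotated start through the first 15 transcribed bases, from RefSeq on GRCm38.p6. Capitals mark the longest pyrimidine run that reaches within 5 bases of the start.
Rpl14: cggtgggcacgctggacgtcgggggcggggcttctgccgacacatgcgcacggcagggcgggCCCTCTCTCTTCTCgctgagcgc
Rps21: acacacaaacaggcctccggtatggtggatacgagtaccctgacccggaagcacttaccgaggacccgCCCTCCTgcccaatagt
Rps27: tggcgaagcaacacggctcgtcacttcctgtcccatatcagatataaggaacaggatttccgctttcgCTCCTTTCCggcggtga
Rpl12: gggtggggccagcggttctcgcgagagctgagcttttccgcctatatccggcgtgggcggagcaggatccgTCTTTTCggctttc
Rps27l: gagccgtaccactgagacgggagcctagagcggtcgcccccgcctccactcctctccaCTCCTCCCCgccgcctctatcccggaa
The windows are chr9:120571447-120571531 (+ strand) for Rpl14, chr2:180257309-180257393 (+) for Rps21, chr3:90213634-90213718 (-) for Rps27, chr2:32961642-32961726 (+) for Rpl12 and chr9:66946016-66946100 (+) for Rps27l. The marked runs are 14 bases in Rpl14, 7 in Rps21, 9 in Rps27, 7 in Rpl12 and 9 in Rps27l, and that of Rps27l ends before the annotated start. Members with shorter runs are not shown. Among those with the smallest p, the run is 4 bases in Rpl9, 3 in Rpl37a and 3 in Rps4x. Among those with the highest fold changes, it is 6 in Rps2 and 3 in Rpsa. Rps21 and Rps27l each have 2 annotated starts in the table, and the start with the longer run is shown.

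RefSeq promoter windows of 300 bases, 250 before and 50 after the start, were at hand for 63 of the 84 members. A pyrimidine run of at least 8 bases reached within 5 bases of an annotated start in 24 of them, or 38.1%, against 11.35% of the 27025 genes in the table. The motif CCGGAAG on either strand, the core bound by ETS factors such as GABP, lay in the window of 26 of the 63 members, or 41.27%, against 9.928% of all genes. By subunit, CCGGAAG was found in 14 of 34 large subunit and 10 of 23 small subunit genes, and the run in 14 and 8. The sequence TATAAA was in 7 of the 63, or 11.11%, against 15.67% of all genes, and AAGATGGC, a YY1 motif, in 6, or 9.524%, against 3.19%. Among large and small subunit genes with a window, the median log2 fold change of NHD13 against WT was -0.21 in the 22 with the pyrimidine run and -0.23 in the 35 without it. These 4 features were kept out of 12 searched, after their shares were seen. The run may end before the start, and the stricter feature of a C followed by 4 pyrimidines exactly at the start was found in 13 of the 63 members, or 20.63%, against 3.008% of all genes. Of the others, the short element CTTTCC was in 52.38% of members and 29.32% of all genes, GGGCGG in 61.9% and 38.2%, ACTTCCG, which overlaps the reverse of CCGGAAG, in 33.33% and 7.204%, and CACGTG, the E-box bound by Myc, in 9.524% and 8.093%. Motifs were searched on both strands and the pyrimidine run on the transcribed strand. These matches describe letters in a window and not binding.

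Nearly all ribosomal protein mRNAs made up a smaller part of the RNA in NHD13 cells, by a small amount. In all, members took 9.37% and 9.74% of counts in the WT libraries and 8.02% and 7.90% in the NHD13 libraries, a mean of 9.55% ± 0.260 (SD, n = 2) against 7.96% ± 0.0871. Neither NHD13 library reached the level of either WT library. An exact permutation test of 2 libraries against 2 cannot give a two-sided p below 0.333, and it gave 0.333 here. Of the 82 members that passed the filter on low counts, 81 had a log2 fold change below 0, against 49.9 percent of all 14853 genes tested. Their median was -0.23, which is 85.1% of the WT level, while the median of all genes was 0.0013.

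No single member was called by edgeR's quasi-likelihood test, in which a call needs a Benjamini-Hochberg adjusted p under 0.05 over all genes, whereas 4.28 percent of all genes were called, 2.22 percent as lower and 2.07 percent as higher. At an unadjusted p under 0.05, 45 of the 82 members were lower and 0 higher, against 13.9 and 12.9 percent of all genes, and at an adjusted p under 0.10 15 were lower, against 6.97 percent. DESeq2 called 26 members lower and none higher, against 9.33 and 8.2 percent of all genes, and limma-voom called 2 lower against 2.37 percent. In 75 of the 82 both NHD13 libraries lay below both WT libraries, which held for 30.3 percent of all genes, and in no tested member did both lie above, against 30.1 percent. The 7 members whose groups overlapped were Rpl12, Rpl27, Rpl29, Rps15, Rpsa, Rpl7l1 and Rps27l.

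**Figure D1:**
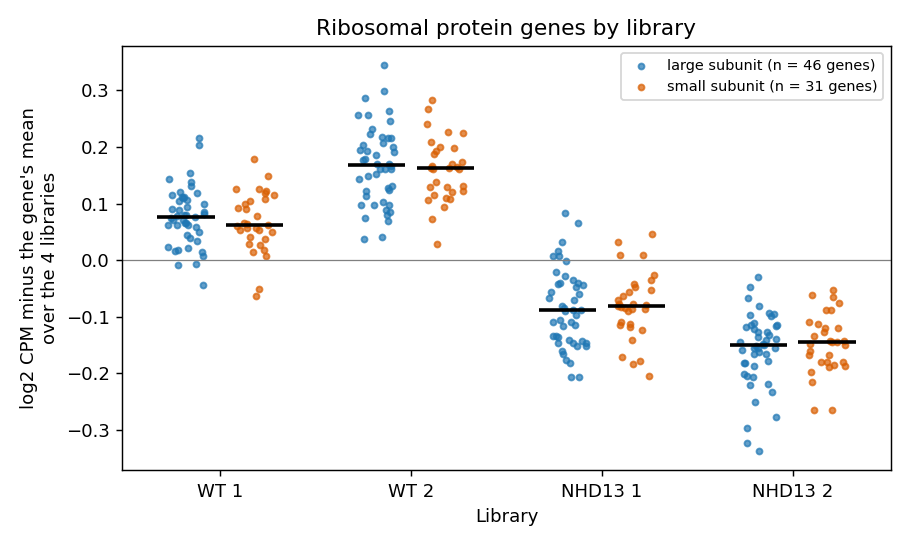
Each point is 1 ribosomal protein gene in 1 library, as its log2 CPM minus its own mean over the 4 libraries, with 46 large subunit genes in blue, 31 small subunit genes in orange and black bars for medians. Genes of both subunits lie mostly above 0 in WT 1 and WT 2 and mostly below 0 in NHD13 1 and NHD13 2, and they also move together between libraries of the same group.

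The members moved together between libraries of 1 group as well, which bears on how their counts can be read. With each gene set to 0 at its own mean, the median log2 level of the members was 0.07 in WT 1, 0.16 in WT 2, -0.09 in NHD13 1 and -0.15 in NHD13 2. Among the 77 large and small subunit genes, WT 2 was below WT 1 in only 4, with a median difference of 0.09, and NHD13 2 was below NHD13 1 in 64, with a median difference of -0.06. The difference between the group means was below 0 in all 77, with a median of -0.23. Members of 1 library thus moved jointly, and their number does not stand for independent observations of the genotype.

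Some other features of the libraries differed between the groups too. For the counts below, both NHD13 libraries lay above both WT libraries in 30.1 percent of all genes and below in 30.3 percent. The summed level of 10 late granulocyte genes was 284 to 329 CPM in WT, 2857 in NHD13 1 and 378 in NHD13 2, with 7 of the 10 higher in both NHD13 libraries. That of 5 early granule genes was 337 to 351 CPM in WT and 916 to 1315 in NHD13, with 4 of the 5 higher in both NHD13 libraries and Prtn3 lower in both, at 270.2 and 273 CPM against 229 and 165. The summed level of 12 lymphocyte genes was 111 to 118 CPM in WT and 263 to 374 in NHD13, with 7 of the 12 higher in both NHD13 libraries. Nkg7, of cytotoxic cells, made up 153 CPM of the sum in NHD13 1 and 82.2 in NHD13 2, against 18.9 in WT 1 and 18.04 in WT 2. The T cell genes differed among themselves in NHD13 2, where Cd3e was at 36.3 CPM and Cd3g at 30.8, but Cd3d at 0.633 and Cd2 at 0.224. In the same library Lck was at 97.3 CPM and Gzmb at 30.3, against at most 17.5 and 0.873 in the other libraries. Gzma was at 0.0408 in NHD13 2. The summed level of 8 erythroid genes was 222 to 223 CPM in WT and 248 to 302 in NHD13, with 3 higher in both NHD13 libraries and 1 lower. That of 10 stroma and endothelium genes overlapped, at 109 to 155 CPM in WT and 119 to 141 in NHD13, with 2 higher and 4 lower. None of these markers was at 0 in all libraries. The median of the members was -0.25 without NHD13 1 and -0.20 without NHD13 2, and the part of these markers in the result was not tested. Of 11 stem cell genes, 8 were lower in both NHD13 libraries, against 30.3 percent of all genes. Their summed level was 2379 to 2688 CPM in NHD13 against 4544 to 4827 in WT. The groups overlapped in 3 of the 11. Among these 3, Mecom was at 249 and 286 CPM in WT and 203 and 300 in NHD13. Fgd5 was at 49.5 and 54.5 in WT and 21.1 and 51.1 in NHD13. In such bulk samples a change in the mix of cells and a change in the RNA of each cell cannot be told apart.

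Large and small subunit genes had close medians, whose difference was not tested. In the large subunit all 46 log2 fold changes were negative, at a median of -0.25 and a range of -0.50 to -0.03. In the small subunit all 31 were negative too, at a median of -0.22 and a range of -0.45 to -0.04. The groups did not overlap in 43 of the 46 and in 29 of the 31, against 30.3 percent of all genes, and an unadjusted p under 0.05 was reached by 29 and 15, against 13.9 percent. Large subunit genes took 5.29% and 5.51% of counts in WT and 4.49% and 4.40% in NHD13, and small subunit genes took 4.00% and 4.14% against 3.45% and 3.42%. The ratio of large to small subunit counts was 1.323 and 1.332 in WT and 1.301 and 1.287 in NHD13. These ratios did not overlap, but their difference of means, -0.034, again had an exact permutation p of 0.333, the smallest that 2 against 2 can give.

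**Figure D2:**
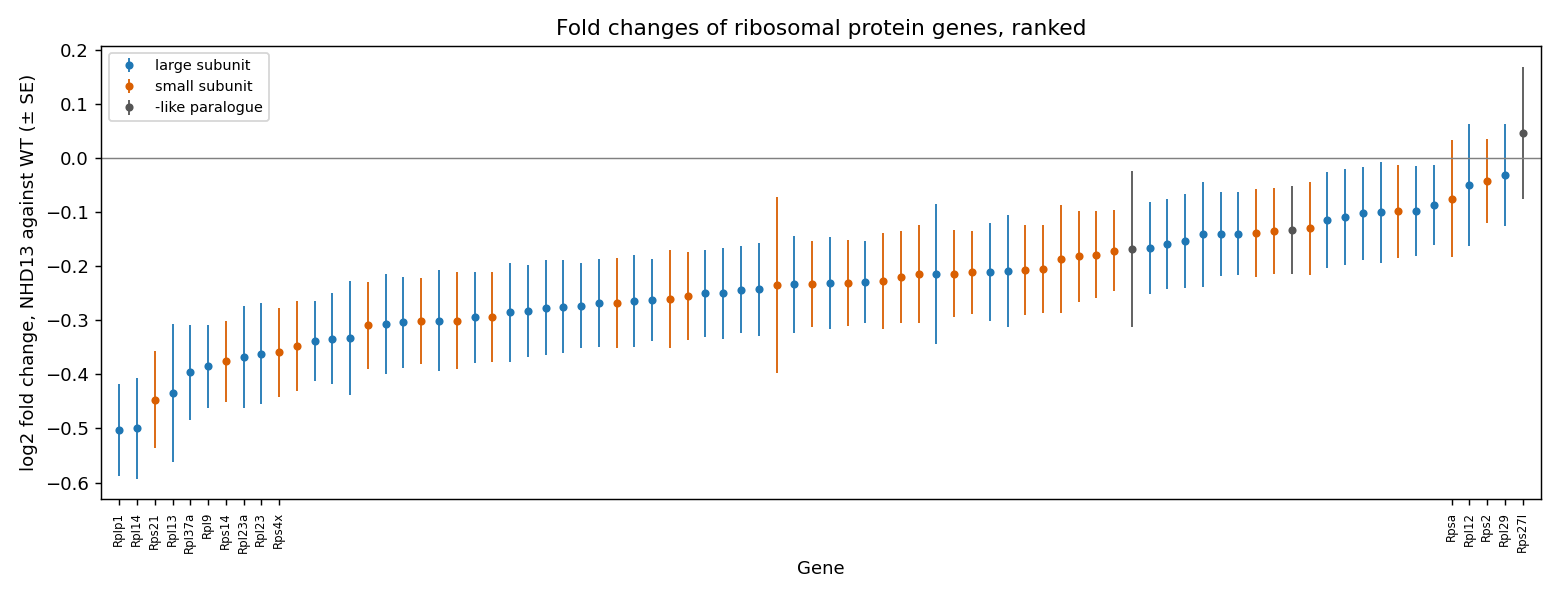
Points are fitted log2 fold changes of NHD13 against WT with standard errors for 80 tested members, ranked from lowest to highest and coloured by class, with names at the 10 lowest and 5 highest. Rplp1 and Rpl14 stand at the low end near -0.50, Rps27l is the 1 gene above 0, and the low-level copies Rps4l and Rpl39l lie outside the plotted range at -3.80 and -1.63.

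Members at the low end came from both subunits. Rplp1, an acidic protein of the stalk that recruits elongation factors, was at 1036 and 1107 CPM in WT and 780 and 732 in NHD13. The NHD13 libraries were both clearly below WT, at 70.6% of its mean, and the log2 fold change of -0.50 ± 0.09 (SE) had an adjusted p of 0.0501. Rpl14, of the large subunit, was at 2005 and 2106 CPM in WT and 1540 and 1367 in NHD13, with a log2 fold change of -0.50 ± 0.09 and an adjusted p of 0.0579. Rps21, a small subunit protein needed for late maturation of its rRNA, was at 318 and 338 CPM in WT and 247 and 234 in NHD13 (-0.45 ± 0.09, adjusted p 0.0634). The gap between the groups exceeded the gap within either group in each of these 3 genes.

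Rps14, the small subunit gene linked to the anemia of the chromosome 5 deletion, was at 3136 and 3311 CPM in WT and 2501 and 2467 in NHD13. It stood at 77.1% of the WT mean, with a log2 fold change of -0.38 ± 0.07 and an adjusted p of 0.0631. Rpl9 had 1697 and 1791 CPM in WT and 1323 and 1348 in NHD13 (-0.38 ± 0.08, adjusted p 0.0637). Rpl7 (-0.34 ± 0.07), Rpl37a (-0.40 ± 0.09), Rps4x (-0.36 ± 0.08) and Rps27 (-0.35 ± 0.08) were, with Rps4l, described further on, the rest of the 10 members with the smallest p, and had adjusted p of 0.0720 to 0.0853. DESeq2 called all of these, with an adjusted p of 4.65e-05 for Rplp1 and 0.00532549 for Rps27. Rplp1, Rpl14 and Rps14 passed edgeR when libraries were scaled by their totals alone (adjusted p 0.0387, 0.0432 and 0.0450). When only genes at 1 CPM or more in each library of either group were kept, 6 members passed. Over all genes, scaling by totals called 504 of 14853 in either direction, and the 1 CPM filter gave 1066 calls.

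At the high end, 5 members lay close to WT. Rpsa, the small subunit protein also known as the laminin receptor, was at 2414 and 2777 CPM in WT and 2605 and 2324 in NHD13 (log2 fold change -0.07 ± 0.11). Rps2, a small subunit protein near the mRNA entry channel, was at 842 and 850 CPM in WT and 839 and 803 in NHD13 (-0.04 ± 0.08). Rpl12, at the base of the stalk, was at 565 and 623 CPM against 617 and 530 (-0.05 ± 0.11), and Rpl29, a large subunit protein, at 436 and 452 against 459 and 410 (-0.03 ± 0.09). Rps27l had the highest value, 0.05 ± 0.12. In Rpsa, Rpl12, Rpl29 and Rps27l the libraries of the groups interleaved, and the sign turned when 1 library was left out: Rpsa was at 0.03 without WT 2 and 0.01 without NHD13 2, Rpl12 at 0.02 and 0.06 without the same libraries, Rpl29 at 0.05 without NHD13 2, and Rps27l at -0.08 without WT 2.

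Functional groups within the ribosome held both larger and smaller values. Of the stalk, Rplp0, the protein that anchors it, was at 3167 and 3503 CPM in WT and 2702 and 2703 in NHD13 (-0.30 ± 0.08, adjusted p 0.108), while Rplp2, the partner of Rplp1, was at 708 and 712 against 656 and 633 (-0.14 ± 0.08, adjusted p 0.313). The stalk pair Rplp1 and Rplp2, which form heterodimers, therefore had fold changes of -0.50 and -0.14, a difference that was not tested. Of the proteins bound to 5S rRNA, Rpl11 was at 735 and 794 CPM in WT and 628 and 618 in NHD13 (-0.29 ± 0.08), and Rpl5 at 683 and 722 against 645 and 607 (-0.17 ± 0.08). Rpl3 and Rpl4, large subunit proteins that reach into its core, had the highest CPM and log2 fold changes of -0.28 ± 0.09 and -0.21 ± 0.10. Rpl32 followed by CPM at -0.23 ± 0.08, and Rpl10, which is loaded last onto the large subunit before it joins the small one, was at -0.25 ± 0.08.

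Among 17 genes mutated in Diamond-Blackfan anemia or lost with the chromosome 5 deletion, all 17 had a log2 fold change below 0 (49.9 percent of all genes), 8 had an unadjusted p under 0.05 (13.9 percent) and none was called (4.28 percent in either direction). Their median was -0.23, the same as that of all members to 2 decimals. Rps19, the gene most often mutated in the anemia, was at 1713 and 1885 CPM in WT and 1554 and 1451 in NHD13 (-0.26 ± 0.09, adjusted p 0.156). Rpl26 (-0.27 ± 0.08), Rpl31 (-0.26 ± 0.08), Rps10 (-0.23 ± 0.08), Rpl35a (-0.23 ± 0.09) and Rps28 (-0.23 ± 0.09) were near the median. Smaller values were found for Rps29 (-0.19 ± 0.10), Rps24 (-0.18 ± 0.08), Rps7 (-0.18 ± 0.08), Rpl15 (-0.14 ± 0.08), Rps26 (-0.13 ± 0.08) and Rpl27 (-0.10 ± 0.09). Of the list, 16 were lower in both NHD13 libraries, against 30.3 percent of all genes, and only Rpl27 had overlapping groups. The other 40 tested members, not named by the rule for named genes, all had log2 fold changes below 0, from -0.43 to -0.09, with adjusted p of 0.0928 to 0.513.

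Genes with a -like paralogue offered a comparison of 2 related copies in the same libraries. The 8 parent genes had a median log2 fold change of -0.29, and the 69 other large and small subunit genes had one of -0.23. All 8 parent genes were lower in both NHD13 libraries, as were 64 of the 69 others, against 30.3 percent of all genes. Of the 7 -like members 5 were tested, with 4 below 0 and a median of -0.17. For Rpl36a, the -like copy Rpl36al lies outside the symbol pattern and is given for comparison. Shares below are the counts of the -like copy over those of both copies, so they compare libraries and not the levels of the copies, whose transcripts differ in length.

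Apart from Rpl3l, Rpl10l and Rpl39l, which had few counts and are given further on, in 2 pairs the -like copy made up a larger share in both NHD13 libraries than in either WT library. Rps27l, a p53-induced copy of Rps27, took 11.4% and 9.06% of the pair in WT and 13.6% and 12.4% in NHD13, as Rps27 had a log2 fold change of -0.35 and Rps27l one of 0.05. Rpl36al took 18.2% and 17.3% in WT and 22.7% and 21.95% in NHD13, with -0.30 ± 0.09 for Rpl36a and 0.12 ± 0.10 for Rpl36al. In 2 further pairs of ample counts the groups overlapped. Rpl7l1, a nucleolar relative of Rpl7, took 10.2% and 12.4% in WT and 12.2% and 12.9% in NHD13, with WT 1 apart from the other 3 libraries. Rpl22l1, which can replace Rpl22 in the ribosome and whose level Rpl22 is known to hold down, took 46.5% and 44.7% in WT and 44.3% and 49.9% in NHD13. Rpl22 itself was at 409 and 454 CPM in WT and 408 and 336 in NHD13 (-0.21 ± 0.13), and Rpl22l1 at 355 and 367 against 325 and 334 (-0.13 ± 0.08). With 2 libraries per group, none of these shares can pass an exact permutation test.

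In the Rps4 pair the -like copy had the lowest fold change of any tested member. Rps4l, an autosomal copy of the X-linked gene Rps4x with a non-coding RefSeq accession, was counted 1357 and 1035 times in the WT libraries, then 124 and 37 times in those of NHD13, or 31.2 and 28.3 CPM against 3.61 and 0.755. Both NHD13 libraries lay far below both WT libraries, at 7.33% of the WT mean, and they differed between themselves as well. Its log2 fold change was -3.80 ± 0.73 with an adjusted p of 0.0605 by edgeR, which called it without NHD13 1 (-5.29, adjusted p 0.0213) and without NHD13 2 (-3.04, adjusted p 0.0178) but not without WT 1 (0.267) or WT 2 (0.232). In each of these fits 1 arm has a single library, which is assumed to vary like the other group, so the first 2 leave out the spread between the unlike NHD13 libraries. DESeq2 called it with an adjusted p of 3.85e-08 and limma-voom with 0.0386. Its share of the pair was 1.74% and 1.46% in WT and 0.25% and 0.0530% in NHD13, with exact binomial 95% intervals of 1.65 to 1.83% and 1.37 to 1.55% in WT and 0.208 to 0.298% and 0.0373 to 0.0730% in NHD13. The intervals cover counting error only. Rps4x was counted 76636 times in WT 1, 70034 in WT 2, 49563 in NHD13 1 and 69831 in NHD13 2, so the counts of Rps4l were no fixed fraction of those of Rps4x.

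**Figure D3:**
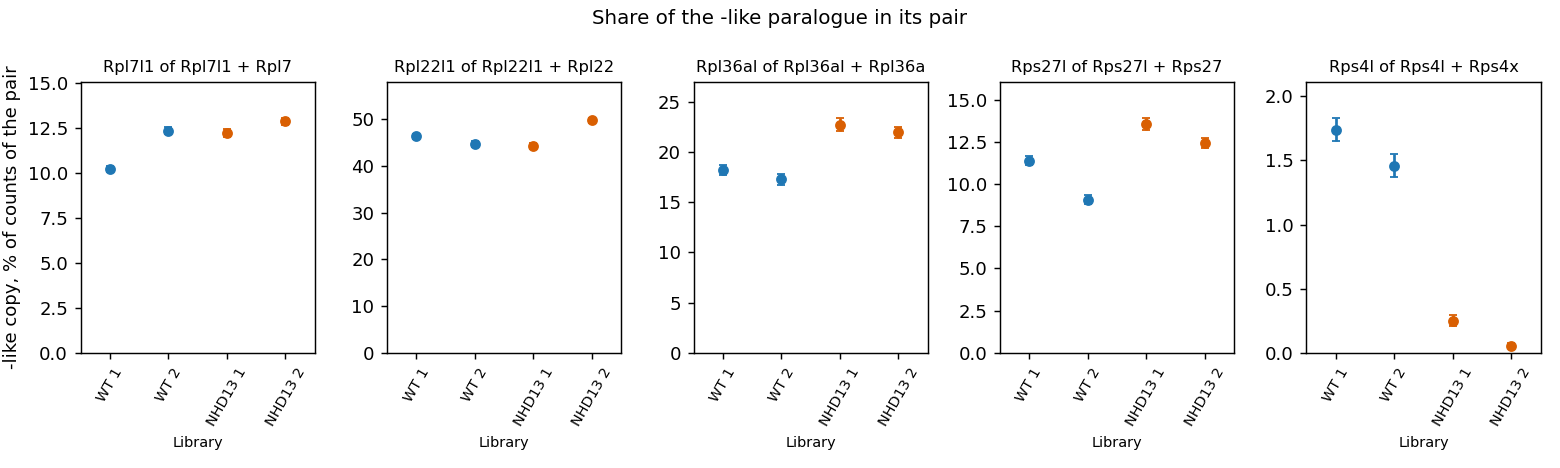
Each panel plots the -like copy as a percentage of the counts of its pair in each library, with WT in blue, NHD13 in orange and exact binomial 95% intervals for counting error. The share of Rps4l is near 0 in NHD13 (0.25% and 0.0530%), the shares of Rpl36al and Rps27l are higher in both NHD13 libraries, and those of Rpl7l1 and Rpl22l1 overlap between groups.

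The remaining -like copies had few counts. Rpl39l, a copy of Rpl39 used in the testis, reached 14 counts in each WT library, 1 in NHD13 1 and 9 in NHD13 2, a ratio of NHD13 to WT of 0.343 with a 95% counting interval of 0.149 to 0.727 and a fitted log2 fold change of -1.63 ± 0.95 (adjusted p 0.335). Rpl3l, a copy of Rpl3 known from striated muscle, reached 3 counts in WT 1, 1 in WT 2, 8 in NHD13 1 and 41 in NHD13 2, a ratio of 11.8 (4.31 to 44.9) that rests mostly on NHD13 2. Rpl10l, a testis copy of Rpl10, reached 19 counts in WT 1, 1 in WT 2, 1 in NHD13 1 and 2 in NHD13 2, a ratio of 0.144 (0.0274 to 0.486) that rests on WT 1. The share of Rpl3l in its pair was higher in both NHD13 libraries, that of Rpl39l was lower in both, and that of Rpl10l overlapped between the groups. Rpl3l and Rpl10l did not pass the filter on low counts. All 3 took well under 1% of their pairs in every library.

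Many ribosomal protein genes have processed pseudogenes, so shared sequence was measured as the percentage of 75-base stretches of a member's transcript, the length of a read, that also occur in a transcript of another gene. It was 50% or more in 30 members, with Rpl10 (91.9%) and Rpl9 (91.3%) highest, 10 to 50% in 39, and under 10% in 15. These limits were set after the percentages were seen. The median log2 fold change was -0.25 in the 30 tested members that share most, -0.23 in the 39 between and -0.21 in the 13 tested that share least, of which all 13 were below 0. Rps3, which shares no such stretch, had -0.21 ± 0.08. Rps4l shares 6.67%. Across the 77 large and small subunit genes, Spearman's rho of the fold change with the shared percentage was -0.108 and with the average log2 CPM -0.285, given as descriptions, since the genes share libraries. Some copies carry nearly the same counts as a member: Rps27rt held 99.6 to 99.7% of the counts of Rps27, and Rpl34-ps1 99.5 to 99.8% of those of Rpl34. Lower shares were held by Rpl14-ps1, at 13.4 to 14.4% of the counts of Rpl14, and Rps15a-ps4, at 6.11 to 6.97% of those of Rps15a. Values of Rps27 and Rpl34 are therefore those of a family of transcripts, and the counted transcripts of Rps27 and Rpl22 carry non-coding RefSeq accessions.

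Other parts of the translation machinery were read from the same fit. In it 4.28 percent of all genes were called, 2.22 percent as lower and 2.07 percent as higher, and 49.9 percent were below 0. Of the genes outside the symbol pattern, Fau was at -0.21 ± 0.09 and Gnb2l1, a scaffold on the small subunit, at -0.07 ± 0.08, and neither was called. Among 18 other mRNAs known for a terminal oligopyrimidine tract, 14 were below 0, none was called, and the median was -0.12. Of these, the elongation factor gene Eef2 was at 3464 and 3456 CPM in WT and 2525 and 2687 in NHD13 (-0.41 ± 0.08, adjusted p 0.0574), and Eef1a1 at 17185 and 18384 against 14364 and 14426 (-0.31 ± 0.07, adjusted p 0.0840). Among 36 initiation factor genes the median was -0.03, with 1 called: Eif4g3, a scaffold of cap binding, was higher by 0.54 ± 0.09 on the log2 scale (adjusted p 0.0478). The call for Eif4g3 was lost when scaling by totals alone (0.0518), by limma-voom (0.0530), with summed transcripts (0.0573) and without any 1 library (0.0692 to 0.261).

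Mitochondrial ribosomal proteins lay near the median of all genes. Beside the counts of these lists, 4.28 percent of all genes were called and 49.9 percent were below 0. Of their 77 genes, 24 had a log2 fold change below 0, the median was 0.04 and none was called; Mrpl52 (-0.31 ± 0.10) and Mrpl37 (0.30 ± 0.10) had the smallest p. Of 76 ribosome biogenesis genes 29 were below 0, with a median of 0.03 and none called; Tsr2, a chaperone of Rps26, had -0.44 ± 0.10 and Mdn1, a remodeller of the large subunit precursor, 0.49 ± 0.12. The 20 RNA polymerase I genes had a median of 0.0047 with none called, and Taf1d (0.23 ± 0.10) and Polr2h (-0.21 ± 0.09) had the smallest p. These medians stand beside that of -0.23 for the members as descriptions, and their differences from it were not tested.

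**Figure D4:**
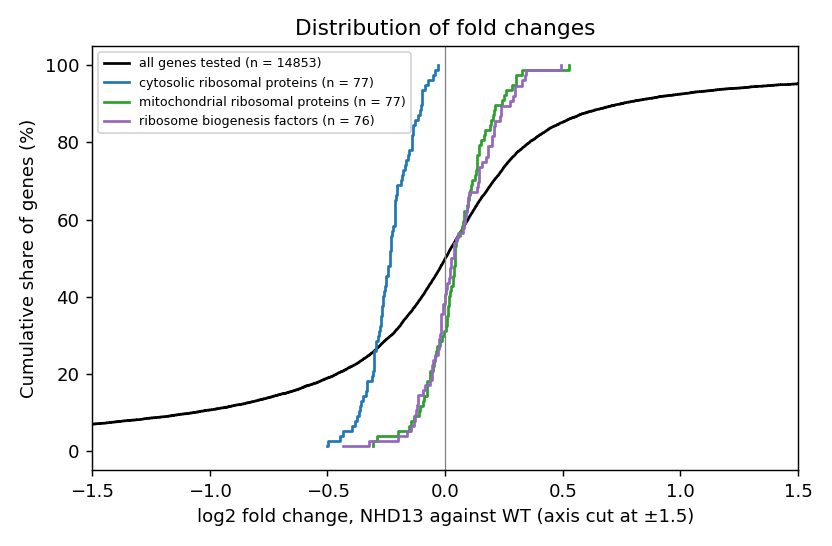
Curves give the cumulative percentage of genes at or below each log2 fold change of NHD13 against WT for all 14853 genes tested, 77 cytosolic ribosomal protein genes without the -like copies, 77 mitochondrial ribosomal protein genes and 76 biogenesis genes. The cytosolic curve lies wholly below 0 with a narrow range of -0.50 to -0.03, while the mitochondrial and biogenesis curves reach to both sides of 0, with medians of 0.04 and 0.03.

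Regulators of mRNAs with the tract lay mostly above 0, and genes of ribosomal stress were uneven. Of 16 genes listed as such regulators, among them genes of mTORC1, 2 were below 0 (49.9 percent of all genes), at a median of 0.18. Both NHD13 libraries lay above both WT libraries in 11 of the 16 (30.1 percent of all genes) and below in 1 (30.3 percent). None was called, and 4.28 percent of all genes were, a share that also applies to the lists below. Larp4b (0.41 ± 0.10) and Rptor, the scaffold of mTORC1 (0.67 ± 0.19), had the smallest p. Of 10 snoRNA host genes, whose introns carry guides for rRNA modification, Snhg18 was called lower, at 194 counts in WT 1, 144 in WT 2, 0 in NHD13 1 and 5 in NHD13 2 (adjusted p 0.0461), and the median was 0.02. The call for Snhg18 was lost when scaling by totals alone (0.0549), with summed transcripts (0.0658) and without WT 1 (0.227) or WT 2 (0.202). Of 11 genes of p53 and its targets 7 were below 0 and none was called. The target genes Cdkn1a, an inhibitor of the cell cycle, and Ccng1 had the smallest p, and Cdkn1a was uneven in WT at 135 and 47.9 CPM, against 23.9 and 27.7 in NHD13 (-1.83 ± 0.50, adjusted p 0.106), while Ccng1 had -0.49 ± 0.16. Myc drives ribosomal protein transcription. Of 7 tested genes of the Myc family, its partners and its antagonists, 2 were below 0 and none was called. Myc stood at 278 and 296 CPM in WT, 319 in NHD13 1 and 115 in NHD13 2 (-0.41 ± 0.47), and Mycn at 151 and 171 in WT, 163 in NHD13 1 and 326 in NHD13 2 (0.60 ± 0.33). In both genes NHD13 2 stood apart from the other 3 libraries. Mxd1, an antagonist of Myc, had 0.18 ± 0.16.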

How the data were processed

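The deposited values are raw whole-number counts per RefSeq transcript, 1 table per library. Per the labels' protocols, cDNA was made from 10 ng of total RNA with a SMARTer low-input kit and read as 75-base paired ends on a HiSeq. Reads were aligned with Bowtie 0.12.2 to mm9, per the submitters' processing notes. How reads were counted, and whether by strand or with multiple alignments, is not given in the sources used here. Libraries held 35025974 to 48423689 counts over 24016 symbols with 1 transcript each (of 33018 transcripts), and Rn45s took 2.73 to 3.40 percent.

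Counts of all 4 libraries were fitted with edgeR 4.0.16 (R 4.3.3): default filter on low counts, TMM scaling, the robust form of the quasi-likelihood test for NHD13 against WT, Benjamini-Hochberg adjustment over 14853 genes, calls at an adjusted p under 0.05. CPM use TMM-scaled totals, and standard errors are the fold change over the root of F. DESeq2 1.42.0 and limma-voom (limma 3.58.1) were alternatives. The test was tried on simulated data. Named genes were the 10 smallest p, the 5 lowest and 5 highest fold changes, the 3 highest and 3 lowest CPM, the -like pairs, the anemia, stalk and 5S genes, and the leading genes of each further list. Myc, Cd3e, Cd3g, Cd3d, Cd2, Lck, Gzmb, Gzma, Nkg7, Prtn3, Mecom, Fgd5, Rps3, Rpl34, Rps15a and the copies Rps27rt, Rpl34-ps1, Rpl14-ps1 and Rps15a-ps4 were chosen after their values were seen. Members and lists were chosen with earlier results of these data known. Some members' values are not reported here. Transcript sequences came from GENCODE M21.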

Additional observations from a re-analysis of the deposited data

How the results depend on the processing

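In each setting but the crossed block, which was read for calls alone, 79 to 82 members were below 0, and the median log2 fold change stayed between -0.28 (without WT 1) and -0.19 (without WT 2). The count of members called as lower, 0 by edgeR, was 2 without a filter, 3 when scaling by totals alone, 6 with the 1 CPM filter, 26 by DESeq2, 2 by limma-voom and 15 at an adjusted p under 0.10, and 0 to 1 when a library was left out; none was called higher. Over all genes, calls numbered 636, against 1138 without a filter, 1066 with the 1 CPM filter, 2604 by DESeq2, 402 with summed transcripts, 1923 at an adjusted p under 0.10 and 0 to 990 when a library was left out (0 without WT 1 or WT 2, with 2332 and 2605 at an unadjusted p under 0.05, 270 without NHD13 1). Scaling by totals alone called 504 genes over all and limma-voom 619. With the replicate number as a block, edgeR called 107 genes and 0 members, and Eif4g3 (adjusted p 0.117) and Snhg18 (0.102) were not called. The deviations of same-numbered libraries correlated at -0.125. This value does not show a pairing by number, and with 2 libraries per group it cannot exclude one. With crossed numbers as a block, added after seeing the data, 3 members were called, among 647 calls over all genes. The share of counts in members differed by -1.60 percentage points, and by -1.19 with summed transcripts. Among the named genes, the sign turned in 5 when 1 library was left out, and members not named were not read gene by gene. On the log2 scale, Rps27l ranged from -0.0777 to 0.180, Rpl29 from -0.106 to 0.0536 and Rpl12 from -0.154 to 0.0607. Rpsa ranged from -0.178 to 0.0309 and Rpl7l1 from -0.343 to 0.0248. The cause of these changes was not tested.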

Other observations

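Around Rps4l, 1 neighbouring gene in the order of RefSeq GRCm38.p6 was lower in both NHD13 libraries, which held for 30.3 percent of all genes. The neighbours were chosen after the values of Rps4l were seen. Tmtc1, which encodes a mannosyltransferase of the endoplasmic reticulum, had 43 counts in WT 1, 37 in WT 2, 6 in NHD13 1 and 8 in NHD13 2, with a log2 fold change of -2.55 ± 0.56 (SE) and an adjusted p of 0.0744 by edgeR. The neighbours Ipo8, an import receptor, and 4732416N19Rik were at 0.09 ± 0.11 and 0.03 ± 0.49. The neighbour Gm6313 had 3 counts in WT 1, 0 in WT 2, 0 in NHD13 1 and 4 in NHD13 2. It did not pass the filter on low counts.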
